A study of Homo sapiens with 6 samples.

Results

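Of the 15703 E2F1 peaks of DMSO-treated MDA-MB-231 cells, 5376 lay at a promoter, overlapped an E2F1 peak of GSK126-treated cells and overlapped none of untreated cells. They were chosen by the 3 E2F1 peak lists, as DMSO peaks with the summit, the base of highest signal, within 1 kb of a transcription start site (TSS) of any GENCODE release 44 gene, an overlap of at least 1 bp with a GSK126 peak and no overlap with an untreated peak. Of the 6709 DMSO peaks at promoters, 6315 overlapped a GSK126 peak, and 939 of these also overlapped an untreated peak and serve below as the promoter peaks in all 3 lists. The other 394 overlapped neither list, and 0 overlapped an untreated peak alone. The E2F1 values below therefore describe peaks that these lists chose, and they are given without a test.

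MDA-MB-231 is an established human line of triple-negative breast cancer. E2F1 was profiled by ChIP-seq, in which DNA bound by a protein is immunoprecipitated and sequenced, in untreated cells, in cells given DMSO for 72 h and in cells given 1 µM GSK126 for 72 h. The histone mark H3K27me3 was profiled in cells that lentivirus had supplied over 24 h with a control shRNA or with shE2F1, which targets E2F1, followed by 72 h in puromycin at 2 µg/ml. Each condition had 1 library, so no difference between conditions has a replicate check, no p-value is given, and all 95% intervals cover counting error only. No replicate culture and no other shRNA against E2F1 entered these lists.

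Activating E2F transcription factors such as E2F1 bind DNA with a DP partner and switch on genes for entry into S phase. The retinoblastoma (RB) proteins hold them in check until cyclin-dependent kinases release them. H3K27me3 is the repressive mark that Polycomb repressive complex 2 (PRC2) places on histone H3 through EZH2 or EZH1, and it is typical of silent CpG-rich promoters. GSK126 inhibits EZH2.

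The untreated library stood apart from the other E2F1 libraries. It held 1056 peaks, against 15703 for DMSO and 14276 for GSK126, and 93.8% of them were at promoters, against 42.7% and 73.8%. The genome-wide background per base, recovered from the peak values in fragments, was 0.668 in untreated, 1.82 in DMSO and 1.70 in GSK126. At the untreated scale, which was 0.367 times that of DMSO, the median member would have held 9.91 fragments at its summit, and 981 of the members (18.2%) would have fallen below the 7 fragments of the weakest untreated peak. The scaled median of the promoter peaks in all 3 lists was 23.9 fragments, and the median untreated peak held 19, a number that 477 members reached on that scale. Depth and cell state cannot be told apart as reasons for the lack of an untreated peak, and the values without the untreated list are given with the results below.

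The sequences below show what lay under the summits of members with and without the E2F motif. Each line is the plus strand of GRCh38, 50 bases to either side of the DMSO summit, with matches to the E2F motif in capitals. The motif was searched as TTCCCGC, its variant TTCGCGC, its variant TTGCCGC or its variant TTGGCGC on either strand, within 100 bp of the summit, and 12.3% of windows of the same length at the canonical TSSs of all 19970 protein-coding genes held it. A match is a description of the letters and not evidence of a bound site. HMGN2 (chr1:26472925-26473025), TMEM116 with ERP29 (chr12:112013171-112013271), MZT2A (chr2:131493006-131493106), TIPIN (chr15:66356724-66356824) and SCAF4 (chr21:31732239-31732339) were among the members of the highest fold, ARHGEF39 (chr9:35665167-35665267) was among the strongest without the motif, and ZNF689 (chr16:30609796-30609896) was among those with the strongest H3K27me3 peak found in shE2F1 only.
HMGN2: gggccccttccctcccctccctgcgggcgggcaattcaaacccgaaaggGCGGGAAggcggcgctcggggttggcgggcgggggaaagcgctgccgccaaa
TMEM116: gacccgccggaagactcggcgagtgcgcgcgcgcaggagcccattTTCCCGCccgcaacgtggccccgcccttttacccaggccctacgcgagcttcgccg
MZT2A: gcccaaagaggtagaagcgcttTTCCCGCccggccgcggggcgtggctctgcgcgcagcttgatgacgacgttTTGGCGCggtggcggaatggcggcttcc
TIPIN: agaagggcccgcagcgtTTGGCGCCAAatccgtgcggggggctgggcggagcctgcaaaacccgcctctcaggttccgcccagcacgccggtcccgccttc
SCAF4: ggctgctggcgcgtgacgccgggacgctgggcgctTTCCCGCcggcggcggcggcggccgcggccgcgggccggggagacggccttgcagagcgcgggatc
ARHGEF39: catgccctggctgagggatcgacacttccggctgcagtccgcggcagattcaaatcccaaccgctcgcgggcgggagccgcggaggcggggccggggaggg
ZNF689: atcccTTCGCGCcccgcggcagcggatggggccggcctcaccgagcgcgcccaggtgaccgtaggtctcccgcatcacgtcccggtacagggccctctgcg

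In HMGN2 the match lay 2 bp from the summit, in TMEM116 2 bp on the other side and in SCAF4 12 bp away. MZT2A held a match on each side of its summit, the nearer at 25 bp. The capitals of TIPIN are matches on both strands that overlap in a palindrome, centred 27 bp from the summit at the nearer match. In ZNF689 the match was 42 bp from the summit, and ARHGEF39 had no match within 100 bp on either side, which says only that these letters were not there.

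The members sat on start sites. The median distance from summit to the nearest TSS was 78 bp, and 5063 members had a protein-coding TSS within 1 kb. Of the remaining 313, 235 had TSSs of long non-coding RNA genes only. By annotation, 1700 summits (31.6%) were in a UTR exon, 1526 (28.4%) in an intron, 1114 (20.7%) between genes, 599 (11.1%) in a non-coding exon and 437 (8.13%) in a coding exon. At the limits of the rule, 17 members had a summit in the last 50 bp before 1 kb from a TSS, the farthest at 996 bp with a fold of 6.19, and 14 peaks shared by DMSO and GSK126 lay in the 50 bp beyond, the nearest at 1005 bp with a fold of 10.4. Only 33 members were within 1 kb of an untreated peak, with a smallest gap of 50 bp, and dropping them left 5343.

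Member peaks were weaker in DMSO than the promoter peaks in all 3 lists, which follows in part from the choice of members. The median fold over background was 5.52 (95% interval from order statistics 5.44 to 5.56) and ranged from 2.28 to 45.2, and the summit held a median of 27 fragments with a range from 9 to 179. The promoter peaks in all 3 lists had a median fold of 11.9 and 65 fragments, yet 306 members exceeded that fold and 207 that number of fragments. Among promoter peaks shared by DMSO and GSK126, those absent from untreated cells made up 1037 of 1053 peaks (98.5%) at a DMSO fold under 4, 262 of 541 (48.4%) from 12 to 20 and 37 of 222 (16.7%, Clopper-Pearson 12.01 to 22.2) at 20 or more.

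**Figure D1:**
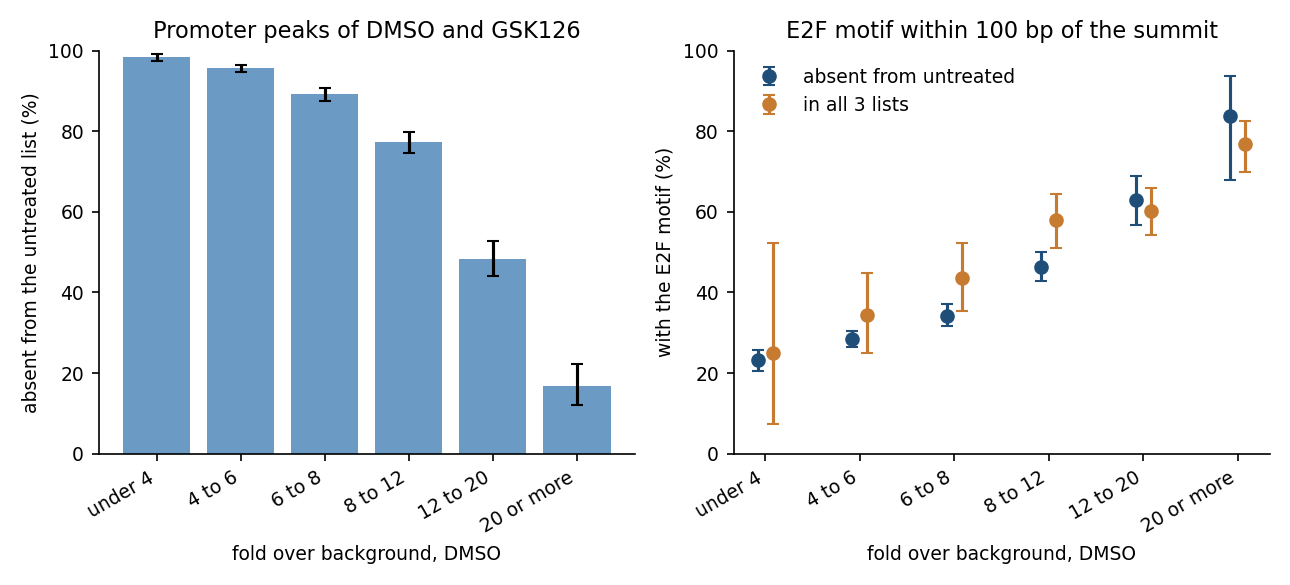
The left bars give the share in percent of promoter peaks shared by DMSO and GSK126 that had no untreated peak, and the right points the share with an E2F motif within 100 bp of the summit, both by DMSO fold over background and with Clopper-Pearson 95% intervals. Absence from the untreated list falls from 98.5% under a fold of 4 to 16.7% from 20, and the motif share of members rises over the same bins from 23.1% to 83.8%.

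The 10 strongest members with a protein-coding TSS carried genes of chromatin, the mitotic spindle and DNA replication among others. HMGN2, which encodes a nucleosome-binding protein, had the highest DMSO fold, 45.2 with 170 fragments, and a GSK126 fold of 73.5 with 298 fragments (chr1:26471538-26473222, summit 231 bp upstream of the TSS). H2BC11, a replication-dependent histone H2B gene, had a fold of 32.2 in DMSO and 56.0 in GSK126 (chr6:27131533-27133536). The peak shared by TMEM116 and ERP29, an endoplasmic reticulum folding factor, had a fold of 31.6 in DMSO and 43.4 in GSK126 (chr12:112012351-112013746). None of these had an untreated peak within 100 kb, the nearest being 147390 bp from HMGN2.

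RAD21, a subunit of the cohesin ring, held 93 fragments at a fold of 29.3 in DMSO and 163 at 53.9 in GSK126, without an E2F motif. MZT2A, a partner of the γ-tubulin complex that nucleates microtubules, had a DMSO fold of 28.7 and a GSK126 fold of 45.6 (chr2:131492442-131493283). TIPIN, which protects the replication fork with TIMELESS, had 27.5 and 53.4 (chr15:66356226-66357050). SCAF4, which binds the tail of RNA polymerase II, had 26.1 and 44.99 (chr21:31732029-31732641), and METTL2B, a tRNA methyltransferase, had 25.1 and 35.5 (chr7:128476275-128476827).

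RANBP3, a cofactor of nuclear export, had a fold of 24.5 in DMSO and 36.5 in GSK126 (chr19:5978086-5978589), and MCM10, which helps to activate replication origins, had 24.3 and 40.1 (chr10:13161274-13162385). In each of these 10 the fold was higher in GSK126, and the summits of the DMSO and GSK126 peaks were 1 to 19 bp apart. The E2F motif was present in 8 of the 10, all but RAD21 and MCM10. The next strongest without the motif were MYBL2, the B-MYB transcription factor, with a fold of 23.2 in DMSO and 38.7 in GSK126 (chr20:43666821-43667833), and ARHGEF39, an exchange factor for small GTPases, with 22.1 and 44.05 (chr9:35664806-35665471).

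Fold was higher in GSK126 than in DMSO at 5184 members and lower at 192. The median GSK126 fold was 9.04, and the median log2 ratio of GSK126 to DMSO fold was 0.71 (0.70 to 0.72). Over all 7385 DMSO peaks with a GSK126 overlap, most of them members, the median was 0.70. It was 0.80 at the promoter peaks in all 3 lists and 0.28 at DMSO and GSK126 peaks away from promoters. The ratio was at least 2-fold in favour of GSK126 at 1021 members, beside 17.9% of all DMSO peaks with a GSK126 overlap, and at least 2-fold in favour of DMSO at 0, beside 0.0271% of them. The rule used this contrast, and nothing is read from these counts. Taken from fragments over the lowest background of each list, the median ratio was 0.76, and without the untreated list it was 0.73.

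The members with the most extreme ratios were mostly pairs of summits that did not coincide. TFDP1, the gene of the E2F partner DP1, had a DMSO fold of 3.98 with 25 fragments and a GSK126 fold of 60.7 with 215 (log2 ratio 3.93, chr13:113585248-113585571), but the summits were 898 bp apart and an untreated peak lay 562 bp from the DMSO peak. CFL1, which encodes the actin-severing protein cofilin, had 2.66 and 26.4 with summits 1208 bp apart (chr11:65859259-65859810). TMEM143 had 4.61 and 43.4 with summits 1025 bp apart and an untreated peak at 484 bp (chr19:48363087-48363632). ZNF292, a zinc finger gene, had 3.78 and 31.9 with summits 615 bp apart (chr6:87155948-87156300), and a stronger member at the same gene had a DMSO fold of 19.1 against the same GSK126 fold of 31.9.

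At the other end, the peak of ALG12 and CRELD2, both genes of the endoplasmic reticulum, had a DMSO fold of 8.33 with 33 fragments and a GSK126 fold of 4.98 with 32 (log2 ratio -0.74, chr22:49918189-49918756). The log2 ratio was -0.72 at PTK2, the focal adhesion kinase, -0.63 at the stress gene SESN3 and -0.62 at the depalmitoylase gene ABHD17C. Here too the DMSO and GSK126 summits lay apart, by 267 bp at ALG12, 1061 bp at PTK2, 953 bp at SESN3 and 393 bp at ABHD17C. Over all members the median distance between the DMSO and GSK126 summits was 36 bp. It was at most 100 bp at 3764 members, and 323 members shared their GSK126 peak with another member.

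**Figure D2:**
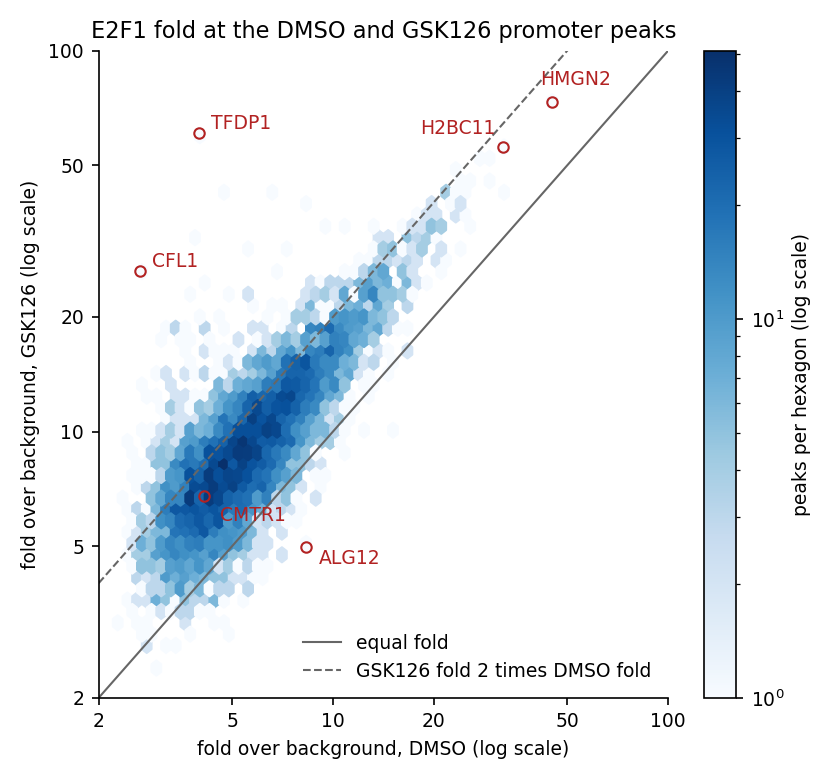
Each hexagon counts members by fold over background in DMSO (x, log scale) and in GSK126 (y, log scale), with lines at equal fold and at a GSK126 fold 2 times that of DMSO, and 6 named members as circles. Most members lie above the line of equal fold, TFDP1 and CFL1 far above it and ALG12 below.

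Motif content was not used to choose the members. The E2F motif lay within 100 bp of the summit in 1787 members, or 33.2% (32.0 to 34.5). It was found in 57.2% of the promoter peaks in all 3 lists, a difference of -23.9 percentage points (Newcombe 95% interval -27.3 to -20.5), and in 21.8% of the 4384 promoter peaks of GSK126 alone, a difference of 11.5 points (9.72 to 13.2). At canonical TSSs of the 9527 protein-coding genes without an E2F1 peak the share was 6.96%, and in windows 2 kb to either side of the members it was 1.85%. Members thus lay between the promoter peaks in all 3 lists and those of GSK126 alone.

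The motif followed the strength of the peak. It was present in 23.1% of members with a DMSO fold under 4, 28.4% from 4 to 6, 34.3% from 6 to 8, 46.4% from 8 to 12, 63.0% from 12 to 20 and 83.8% from 20. In the same bins the promoter peaks in all 3 lists held it in 25%, 34.4%, 43.7%, 57.9%, 60.2% and 76.8%. The intervals of both groups overlapped in every bin but that from 8 to 12, where the members were lower. Without the untreated list the share over all promoter peaks of DMSO and GSK126 was 36.8%.

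Of the members with the motif, 1535 had 1 match and 252 had more, up to 4 in a window. The nearest match was centred at a median of 19 bp from the summit, against 13 bp in the promoter peaks in all 3 lists and 46 bp from the TSS at canonical TSSs of all genes. It lay within 10 bp of the summit at 560 members, 31.3% of those with a match. Motif matches were thus concentrated at member summits, less tightly than in the peaks found in all 3 lists, as the profile of motif position shows.

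**Figure D3:**
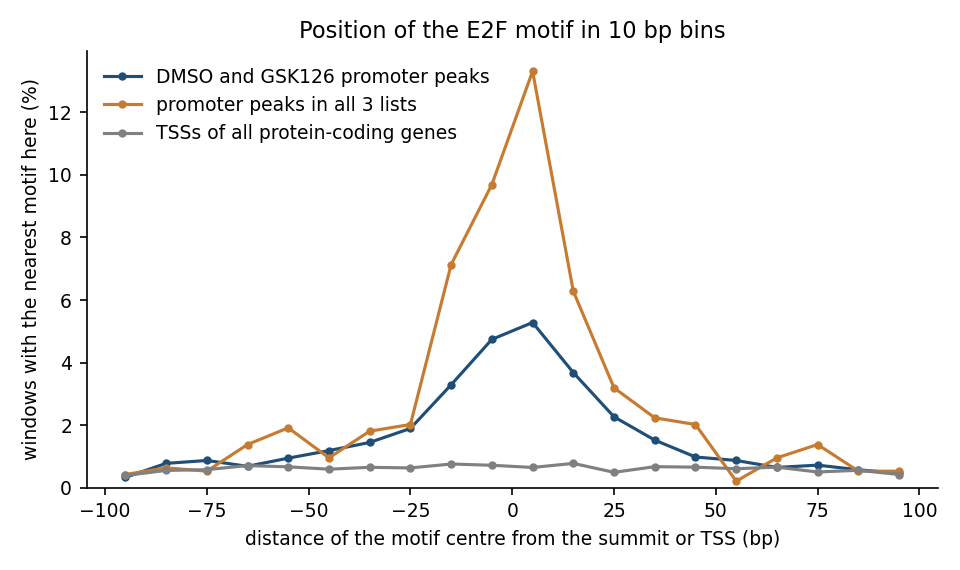
Share in percent of windows whose nearest E2F motif is centred in each 10 bp bin, against distance in bp from the DMSO summit or, for all protein-coding genes, from the canonical TSS. The share peaks beside the summit at 5.28% of members and 13.3% of promoter peaks in all 3 lists, while the line for TSSs stays flat and under 1% throughout.

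By GC content, the motif was in members most frequent where GC was low, at 42.9% of the 70 windows under 50% GC, 36.6% from 50 to 60, 37.4% from 60 to 70, 30.5% from 70 to 80 and 24.8% from 80. At canonical TSSs of all genes the order was different, with 2.39%, 8.97%, 14.7%, 16.1% and 11.8% in the same bins. The median GC content of member windows was 70.6%, against 67.7% in the promoter peaks in all 3 lists and 69.7% in those of GSK126 alone. The ratio of observed to expected CpG dinucleotides was 0.893, a value typical of CpG islands.

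Among other promoter elements, the CCAAT box of NF-Y (CCAAT) was in 20.3% of members and 32.4% of promoter peaks in all 3 lists, a difference of -12.04 points (-15.3 to -8.93), and in 25.2% of all canonical TSSs. The CHR element bound by the MuvB complex of late cell cycle genes (TTTGAA) was in 5.23% of members, 11.7% of promoter peaks in all 3 lists and 6.17% of all TSSs, and the first of these differences was -6.49 points (-8.77 to -4.48). The core of the CREB and ATF site (TGACGT) was in 5.69% and 8.84% of these peaks, a difference of -3.15 points (-5.22 to -1.37), and in 6.90% of all TSSs. The members thus held fewer of these elements than the peaks also found in untreated cells. Promoter peaks of GSK126 alone were no higher than members, with 18.5%, 4.36% and 5.18% in the same order. Members were also the weaker peaks in DMSO, and these shares were not compared within bins of fold. All elements were read on either strand within 100 bp of the summit or TSS.

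The GC box of SP and KLF factors (GGGCGG) was in 69.3% of members and 69.1% of promoter peaks in all 3 lists, a difference of 0.14 points (-3.00 to 3.40), against 53.7% of all TSSs. The ETS element (CCGGAAG) was in 10.2% of members and 11.2% of all TSSs, and the E-box of MYC (CACGTG) in 5.58% and 5.67%. The TATA box (TATAAA) was in 1.58% of members against 6.68% of all TSSs, a difference of -5.09 points (-5.56 to -4.59). Member windows were centred on the E2F1 summit, at a median of 78 bp from the nearest TSS, and those of all genes on the TSS. The part of this placement in the differences from all TSSs was not tested. Protein-coding TSSs on both strands, as in divergent gene pairs, were within 1 kb of 692 members (12.9%), against 21.5% of the promoter peaks in all 3 lists (difference -8.64 points, -11.5 to -5.97).

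H3K27me3 was measured in other libraries than those of the rule. A control shRNA peak overlapped 639 members, or 11.9% (11.03 to 12.8), and a shE2F1 peak overlapped 2804, or 52.2% (50.8 to 53.5). The mark was called in shE2F1 only at 2181 members (40.6%), beside 22.8% of all DMSO E2F1 peaks, and in control shRNA only at 16 (0.298%), beside 2.18%. It was in both at 623 members and in neither at 2556. The difference between the libraries was 40.3 percentage points (38.9 to 41.6), and it was 40.5 points with the peaks of untreated cells included. The shE2F1 list was the larger over the whole genome, with 135683 peaks over 179 Mb against 123957 over 143 Mb, although it was the smaller among peaks with −log10 q from 2 up, with 25174 against 32376. From 3 up it was again the larger, with 4130 against 3427, and from 5 up it had 1626 against 467. The part of list size in these differences was not tested.

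The gain did not set the members apart from promoters that were bound in untreated cells too. It was 41.5 points at the promoter peaks in all 3 lists, so that members were lower by 1.26 points with an interval of the difference from -4.73 to 2.21. At promoter peaks of GSK126 alone the gain was 28.6 points, and members exceeded it by 11.6 points (9.70 to 13.5). At promoter peaks of DMSO alone it was 11.7 points, and at DMSO and GSK126 peaks away from promoters 12.5 points, which members exceeded by 28.6 (24.04 to 33.1) and 27.7 points (24.96 to 30.5).

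Because wide peaks overlap more, the mark was also read over the summit base alone. It covered 7.09% of member summits in control shRNA and 39.0% in shE2F1, a gain of 31.9 points (30.6 to 33.1). The canonical TSSs of protein-coding genes without an E2F1 peak went from 13.8% to 20.4%, a gain of 6.61 points, which members exceeded by 25.3 points (23.8 to 26.7). Members minus these genes came to -6.69 points (-7.66 to -5.71) in control shRNA and to 18.6 points (17.0 to 20.1) in shE2F1, so the order of the groups turned between the libraries.

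**Figure D4:**
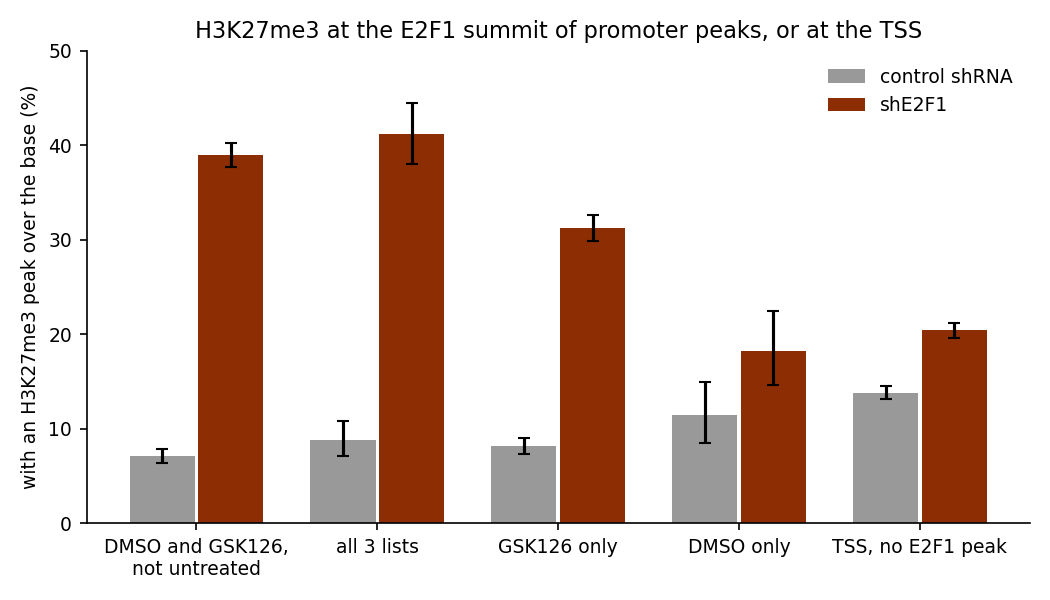
Bars give the share in percent of promoter peaks with an H3K27me3 peak over the E2F1 summit, or over the canonical TSS of protein-coding genes without an E2F1 peak, in control shRNA (grey) and shE2F1 (red), with Clopper-Pearson 95% intervals. The members, on the left, rise from 7.09% to 39.0%, the peaks in all 3 lists by a like amount, and TSSs without E2F1 from 13.8% to 20.4%.

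Most of the gained peaks were weak. Their median −log10 q was 2.23, where the authors' broad calls began near 1. With H3K27me3 peaks limited to a −log10 q of at least 2, the mark was at 432 members in control shRNA and 1815 in shE2F1. At 5 or more it was at 177 and 691, and 279 of the latter had no control peak of any strength. The direction was the same at each limit. Of the 1626 shE2F1 peaks genome-wide with a −log10 q of at least 5, 683 (42.0%) overlapped a member, whereas 2.03% of all shE2F1 peaks did. Of the 467 control shRNA peaks at that limit 176 (37.7%) overlapped a member, against 0.512% of all control peaks, so strong peaks of both libraries were often at members.

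Where the mark was called in both libraries, its fold was higher in shE2F1 at 539 of 623 members, with a median log2 ratio of 0.41. Over all 76658 shE2F1 peaks that overlapped a control peak the median was -0.11, on the other side of 0. The 2758 distinct shE2F1 peaks at members had a median width of 554 bp, and 19 of them reached 5 kb. They were thus short peaks at start sites and seldom broad domains.

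The gain rose with GC content. It was 18.6 points in members under 50% GC, 25.9 from 50 to 60, 32.2 from 60 to 70, 47.2 from 70 to 80 and 57.8 from 80. Read over the base alone, it was higher in members than in the peaks of GSK126 alone and in TSSs without E2F1 in every one of these bins, whereas the promoter peaks in all 3 lists exceeded the members in all bins but that from 70 to 80%, where they had 39.9 points. Their other gains, from low to high GC, were 12.5 points over 8 peaks, 19.1, 29.2 and 70 points over 20 peaks. From 70 to 80% GC, which held 2496 members, the gains were 40.0 points in members, 30.8 in GSK126 peaks and 10.4 in TSSs without E2F1. Under 50% they were 5.71, 1.89 and 2.31, and from 80% 54.0, 46.2 and 15.1.

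The gain hardly moved with E2F1 fold or with the motif. It lay between 37.0 and 43.4 points in all 6 bins of DMSO fold, and it was 40.8 points without the motif, 39.6 with 1 match and 37.3 with more. Members at long non-coding RNA TSSs only had a gain of 23.4 points, against 41.2 at protein-coding TSSs. By chromosome it ran from 27.9 points on X to 52.4 on chromosome 21, with 136 and 42 members. The members with the mark in shE2F1 only had a median DMSO fold of 5.59 and 72.6% GC, and those with the mark in neither library 5.35 and 68.7%.

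The strongest H3K27me3 peak found in shE2F1 only was at the member shared by RBM18, an RNA-binding protein gene, and MRRF, the mitochondrial ribosome recycling factor, whose E2F1 summit lay in a UTR exon (E2F1 peak chr9:122264586-122264876). Its H3K27me3 fold was 11.7 at a −log10 q of 35.7, while the E2F1 fold there was 3.86 in DMSO and 6.10 in GSK126. The promoter of SAP30BP and the DNA helicase gene RECQL5 (chr17:75667183-75667609) had an H3K27me3 fold of 9.90 and −log10 q of 32.0. NUP133, a nuclear pore scaffold gene (chr1:229508081-229508493), had 8.197 and 25.2. The DMSO E2F1 folds of these members, 3.86 to 5.98, lay on either side of the median of 5.52.

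PFAS, of purine synthesis, beside the telomere gene CTC1 (chr17:8248754-8249113) had an H3K27me3 fold of 6.601, NDUFV1 of respiratory complex I (chr11:67606817-67607185) 6.90, and ZNF689 (chr16:30609769-30610063) 9.16. Of these 6, only ZNF689 had an E2F motif. Among the 16 members marked in control shRNA only, the strongest were ZCCHC7, an RNA surveillance gene, with a fold of 3.92 at −log10 q 3.88, and CORO2B, a coronin gene, with 3.97 and 2.75. TPR, of the nuclear pore basket, and the kinase gene HUNK followed with −log10 q of 2.07 and 2.00.

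The strongest marks present in both libraries were at CMTR1, which methylates the mRNA cap (chr6:37433076-37433367), where the H3K27me3 fold was 11.3 in control shRNA and 20.3 in shE2F1. At SENP3, a SUMO protease gene (chr17:7561640-7561951), it was 11.7 and 18.4. At ENSG00000291203, which has no protein-coding neighbour within 1 kb (chr4:119454742-119455029), it was 15.0 and 25.1, and at ABCF2, of the ATP-binding cassette family (chr7:151227211-151227477), 9.81 and 12.9. All of these were higher in shE2F1, and their E2F1 folds in DMSO were between 3.38 and 5.94.

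Counted by gene, 5414 of 19970 protein-coding genes (27.1%) had a member at a TSS and no untreated peak, and 1168 (5.85%) had an untreated peak. A further 3717 (18.6%) had a GSK126 peak only, 144 another DMSO peak and 9527 (47.7%) none. Another 105 genes had both a member and an untreated peak and are counted with the untreated ones. Of the 5414, 1822 (33.7%) had a member with the E2F motif and 2282 (42.15%) had one with H3K27me3 in shE2F1 only, the shares beside which the counts by list below stand. Gene functions were described with 44 lists of gene families and pathways, where a gene with an untreated peak cannot be a member, so lists rich in such genes have less room for members.

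Lists of the cell cycle were shared between members and untreated peaks. Of 47 genes of replication licensing and forks, 27 had an untreated peak and 18 were members (38.3%, 24.5 to 53.6). The interval included the 27.1% of all genes. These 18 members had a median DMSO fold of 12.6 against 5.52 over all members, and 12 of them had the motif. Besides TIPIN and MCM10 they included the helicase subunits MCM6, with a fold of 22.9 in DMSO and 41.6 in GSK126, and MCM2, with 20.5 and 26.5. H3K27me3 was called in shE2F1 only at 5 of the 18. Of 61 DNA repair and checkpoint genes, 28 were members (45.9%, 33.1 to 59.2, the whole interval above 27.1%) and 26 untreated. FANCL, a ubiquitin ligase of the Fanconi pathway, had 22.9 and 39.3, and BARD1, which acts in homologous recombination, 20.1 and 27.9.

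Of 17 cyclins and kinases of G1 and S phase and CDC25 phosphatases, 5 were members (29.4%, 10.3 to 56.0) and 9 untreated. That share was near the 27.1% of all genes. CDK4, which phosphorylates RB, had a fold of 13.2 in DMSO and 23.5 in GSK126, cyclin E1 (CCNE1) 11.6 and 18.7, CDC25B 10.8 and 24.9, and cyclin D3 (CCND3) 7.47 and 11.6. H3K27me3 was called in shE2F1 only at CCNE1 and CCND3. Of 35 mitosis and spindle checkpoint genes, 16 were members (45.7%, 28.8 to 63.4, the whole interval above 27.1%), 14 untreated and 0 without an E2F1 peak. The kinetochore gene NUF2 had 15.4 and 30.3, BIRC5, which encodes survivin, 14.7 and 25.3, and the checkpoint gene MAD2L1 12.1 and 24.5.

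In the E2F and RB families with their partners, 7 of 19 genes were members (36.8%, 16.3 to 61.6, an interval that included the 27.1% of all genes). MYBL2 was the strongest, and the activator gene E2F2 had a fold of 10.9 in DMSO and 19.5 in GSK126. LIN54 and LIN9, of the MuvB complex, had 10.6 and 14.4 and 9.24 and 15.1, the dimer partner gene TFDP2 had 6.87 and 15.0, and E2F4 and E2F6, repressive family members, had 5.34 and 6.15 and 5.05 and 10.5. Beside 42.15% of all member genes, H3K27me3 was called in shE2F1 only at 6 of the 7, all but E2F2, with −log10 q between 1.31 at LIN9 and 3.97 at E2F6. The motif was in E2F2 and E2F4. An untreated peak was present at 9 genes, namely E2F1 itself, E2F3, E2F7, E2F8, TFDP1, RB1, RBL1, RBBP4 and LIN52, while RBL2 had a GSK126 peak only and E2F5 and LIN37 had none.

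Of 12 genes of PRC2, which writes H3K27me3, 6 were members (50%, 21.1 to 78.9, beside 27.1% of all genes), 5 were untreated and 1 had a GSK126 peak only. The core gene SUZ12 had a fold of 6.91 in DMSO and 12.8 in GSK126, and EZH1, the alternative methyltransferase, had 7.81 and 18.2. Of the accessory genes, PHF19 had 11.1 and 20.6, MTF2 8.63 and 12.4, EPOP 3.18 and 7.23, and JARID2 2.97 and 3.905. The motif was in SUZ12, EZH1, MTF2 and EPOP. H3K27me3 was called in shE2F1 only at EZH1 and EPOP and in both libraries at MTF2 and JARID2, the latter with a −log10 q of 26.6 in shE2F1. EZH2, EED, PHF1, RBBP4 and RBBP7 had an untreated peak, and AEBP2 had one in GSK126 only.

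Of 20 genes of Polycomb repressive complex 1, 8 were members (40.0%, 19.1 to 63.9, beside 27.1% of all genes) and 1 was untreated. PCGF6 had a fold of 12.7 in DMSO and 19.4 in GSK126, with H3K27me3 in shE2F1 only, and CBX7, which binds H3K27me3, had 6.85 and 10.97 with H3K27me3 in both. Of 36 histone methyltransferases and demethylases 16 were members (44.4%, 27.9 to 61.9) and 1 was untreated. Histone deacetylases had the highest share of any list, 8 of 11 (72.7%, 39.0 to 94.0), with 0 untreated, and HDAC2 had 10.999 and 15.9, HDAC6 8.81 and 16.6 and HDAC4 8.81 and 14.5. Replication-dependent histones came to 19 of 73 (26.0%, 16.5 to 37.6), of which 13 had the motif and 1 had H3K27me3 in shE2F1 only.

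Lists of the ribosomes, respiration and the proteasome held more members than untreated peaks, as did all protein-coding genes (27.1% against 5.85%). Of 84 cytosolic ribosomal protein genes 46 were members (54.8%, 43.5 to 65.7) and 7 were untreated, at a median fold of 4.96, and 21 of the 46 had H3K27me3 in shE2F1 only, close to the 42.15% of all member genes. RPL41 had a fold of 12.2 in DMSO and 17.2 in GSK126, and RPS16 10.9 and 22.8. Mitochondrial ribosomal protein genes came to 27 of 78, led by MRPL18 with 16.5 and 18.3, complex I to 16 of 46, led by NDUFS3 with 17.2 and 28.6, and proteasome genes to 18 of 48, led by PSMD7 with 10.7 and 13.5. In these 4 lists the untreated peaks numbered 7, 5, 1 and 2. The intervals of the mitochondrial (24.2 to 46.2%), complex I (21.4 to 50.2%) and proteasome (24.0 to 52.6%) shares of members included the 27.1% of all genes.

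Nuclear pore genes were members at 13 of 23 (56.5%, 34.5 to 76.8) and untreated at 7. NUP188 had a fold of 15.1 in DMSO and 28.3 in GSK126, and NUP153 had 14.7 and 28.0. H3K27me3 was in both libraries at 5 of the 13 genes, beside 11.6% of all member peaks. SR and hnRNP splicing factor genes came to 17 of 38 (44.7%, 28.6 to 61.7) with 13 untreated, and had HNRNPA2B1 at 24.2 and 42.7 and SRSF4 at 19.1 and 33.7. Of the 17, 12 had H3K27me3 in shE2F1 only, beside 42.15% of all member genes. Core snRNP genes came to 19 of 45 (42.2%, 27.7 to 57.8) with 14 untreated, and TAF subunits of the initiation factor TFIID to 12 of 24 (50.0%, 29.1 to 70.9). Mediator came to 13 of 30 (43.3%, 25.5 to 62.6) and RNA polymerase subunits to 12 of 31 (38.7%, 21.85 to 57.8). Both of these intervals included the 27.1% of all genes. POLR2A, the largest subunit of polymerase II, had 11.6 and 19.6. Ubiquitin conjugating enzymes came to 17 of 36 (47.2%, 30.4 to 64.5), 11 of them with H3K27me3 in shE2F1 only. RNA helicases came to 21 of 53 (39.6%, 26.5 to 54.0) and translation initiation factors to 21 of 55 (38.2%, 25.4 to 52.3), again with 27.1% inside the intervals.

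Among the lists of signalling and stress genes, only RAS-MAPK, PI3K and mTOR signalling had its whole interval above the 27.1% of all genes. Of its 32 genes 15 were members (46.9%, 29.1 to 65.3), at a median DMSO fold of 4.95. H3K27me3 in shE2F1 only was at 10 of the 15, again beside 42.15%. Autophagy and lysosome genes came to 15 of 37 (40.5%, 24.8 to 57.9) with 1 untreated, led by ATG10 with a fold of 12.8 in DMSO and 24.9 in GSK126. Of 25 genes of intrinsic apoptosis and its control 11 were members, among them the apoptosome gene APAF1 with 11.1 and 13.9. Stress response genes came to 9 of 25, with ATF4 at 8.16 and 14.5.

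The HOX, olfactory receptor, keratin and protocadherin lists held few members. Of 39 HOX genes 0 were members and 34 had no E2F1 peak, of 415 olfactory receptor genes 0 (an upper limit of 0.885%), of 55 keratins 1, KRT19, with a fold of 3.71 in DMSO and 5.90 in GSK126, and of 65 protocadherins 1, PCDH1, with 3.18 and 3.76. Luminal breast genes came to 3 of 18, MLPH, XBP1 and KRT19, and 11 of the 18 had no E2F1 peak. Mesenchymal genes came to 6 of 18 (33.3%), and 7 of the 18 had no E2F1 peak. Among the 6, the integrin gene ITGB1 had 10.3 and 13.5 and the receptor kinase gene AXL 6.34 and 11.5. The fibronectin gene FN1 had 5.32 and 13.3. The intervals of the luminal (3.58 to 41.4%) and mesenchymal (13.3 to 59.0%) shares overlapped, and both included the 27.1% of all genes. As reference genes, ACTB and GAPDH were members, with 4.71 and 9.28 and 7.19 and 12.2, HOXA9 and HOXD9 had no E2F1 peak, and HOXB9 and HOXC9 had a GSK126 peak only.

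**Figure D5:**
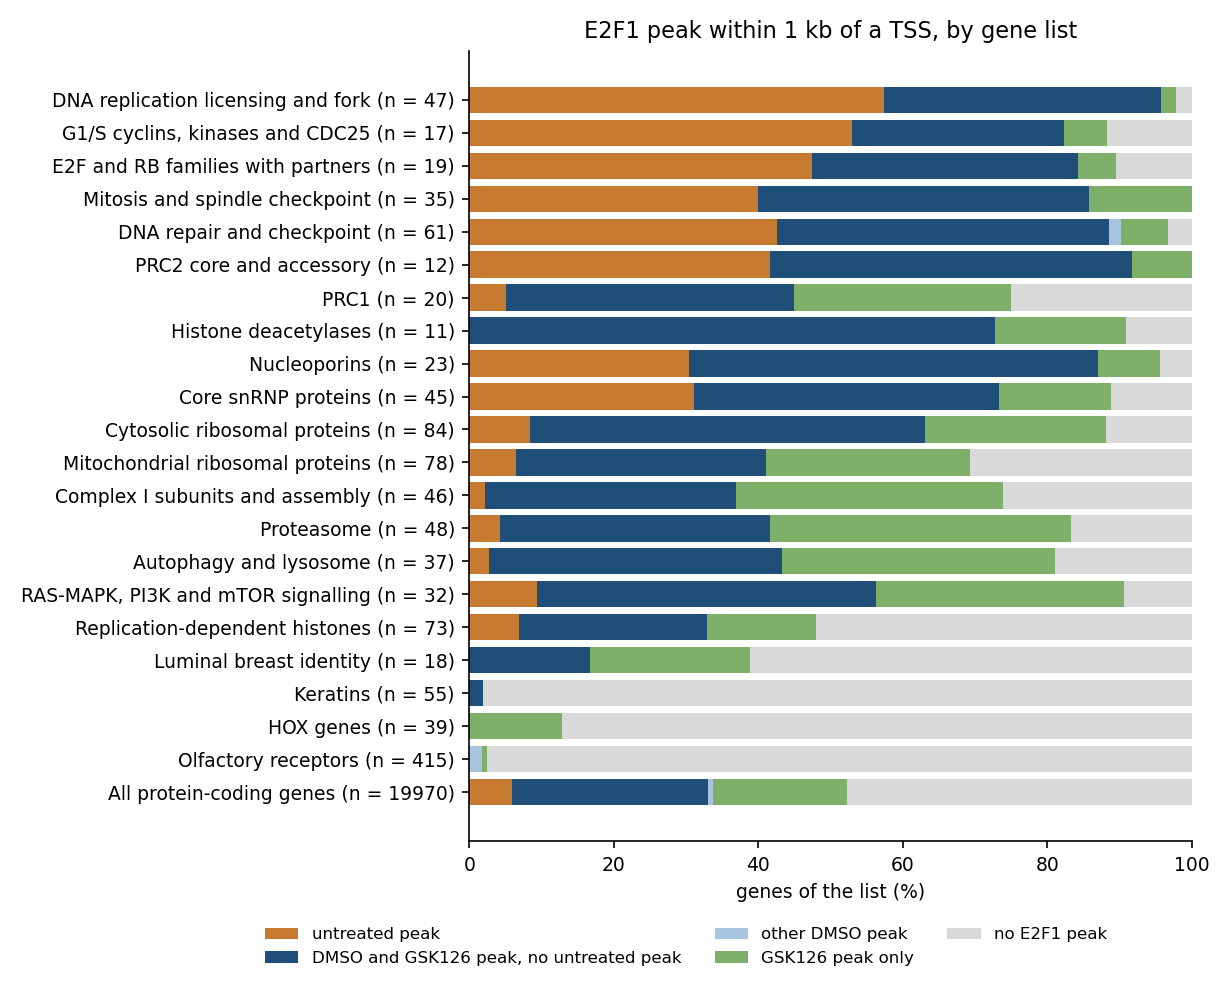
Stacked bars give, for 21 of the gene lists and for all 19970 protein-coding genes, the percent of genes by the E2F1 peak within 1 kb of a TSS, with n as the number of genes in the list. Members (dark blue) fill more than the 27.1% of all genes in cytosolic ribosomal protein, nucleoporin and deacetylase genes, with the whole interval above it. The same holds for DNA repair (45.9%, 33.1 to 59.2), mitosis (45.7%, 28.8 to 63.4), core snRNP (42.2%, 27.7 to 57.8) and RAS-MAPK, PI3K and mTOR genes (46.9%, 29.1 to 65.3). In PRC2 genes (50%, 21.1 to 78.9) and mitochondrial ribosomal protein genes (34.6%, 24.2 to 46.2) the interval includes 27.1%. Members share the cell cycle lists with untreated peaks (orange), and are close to absent from HOX, keratin and olfactory receptor genes.

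Of the 43 lists with at least 10 genes, 32 had a share of members above the 27.1% of all protein-coding genes, 12 with the whole interval above it, and 4 had the whole interval below it. The large families were near that share, with 100 of 367 solute carriers, 61 of 237 TMEM genes, 19 of 74 RAB GTPases, 24 of 77 ubiquitin-specific proteases and 9 of 39 kinesins, while ZNF zinc finger genes came to 172 of 509. The remaining lists were smaller, with 6 of 25 cytochrome c oxidase, 4 of 19 ATP synthase, 10 of 34 tRNA synthetase and 10 of 34 vacuolar sorting genes. Their intervals included 27.1%. In 0 lists was a member marked by H3K27me3 in control shRNA only, which was the case at only 16 of all members (0.298%).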

How the data were processed

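Peak lists of 5 ChIP-seq libraries of MDA-MB-231 cells were used, 3 for E2F1 and 2 for H3K27me3, with 1 library per condition. Values of the input library were not analysed here. Per the study's methods and the submitters' processing notes, chromatin was sonicated for E2F1 and cut with micrococcal nuclease for H3K27me3, reads were trimmed with cutadapt 4.5 and aligned to GRCh38 with Bowtie2 2.5.2, and peaks were called in each library with MACS2 2.2.9.1 at q 0.01, in broad mode with a cutoff of 0.1 for H3K27me3. The deposited lists give a fold over local background (a ratio, at the summit of narrow and averaged over broad peaks), −log10 of the p-value, −log10 of the q-value, a score and, for E2F1, the summit offset. The score deposited by the authors repeats the −log10 q in nearly every peak and was not used.

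Fragments and background at each E2F1 summit were solved from the fold, which holds a pseudocount of 1, and the Poisson p-value. Whole fragments were found for all narrow peaks within a relative error of 2e-05. The authors' control signal entered every fold, so a fold depends on both libraries. Peaks were compared by overlap of at least 1 bp, and a GSK126 partner was the strongest overlapping peak. GENCODE release 44 on GRCh38 gave 218339 TSSs and 19970 protein-coding genes on 23 chromosomes, and it is not the annotation the authors used. Motifs were counted on both strands of the hg38 reference, 100 bp to either side of a summit or TSS.

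Shares carry Clopper-Pearson 95% intervals, differences of shares Newcombe intervals, the gain of H3K27me3 a normal interval for paired shares and medians an interval from order statistics. Peaks are not replicates of a condition, so these cover counting error only and no test between conditions was made. Named genes were the 10 members of highest DMSO fold, the 4 with the highest and the 4 with the lowest ratio, the 6, 4 and 4 with the strongest H3K27me3 peak in shE2F1 only, control only and both, the members of highest fold of each list, and all genes of the E2F and RB, PRC2 and reference lists. Some genes that this rule names are not reported here. The members and gene lists were chosen with earlier results of these data known. The code was checked on simulated peaks with known answers. Python 3.11.15, numpy 2.4.6, scipy 1.17.1, pandas 2.3.3, pysam 0.24.0 and matplotlib 3.10.9 were used.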

Additional observations from a re-analysis of the deposited data

How the results depend on the processing

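Across 56 recomputed values in 15 settings, 39 moved by less than their interval or, for counts, by less than 1.5 times, 17 moved by more and 0 changed direction. Only the gain of H3K27me3 and the log2 ratio could change direction, since counts and shares have none. The rule used the contrast of the ratio. The number of members ran from 3764 to 6315 and that of their genes from 4676 to 6554. With a −log10 q of at least 5 for both E2F1 peaks, the motif share was 35.7% and the median log2 ratio 0.70. The share was 8.71% for the motif with a further T in front and 25.8% within 50 bp of the summit. With H3K27me3 peaks of −log10 q at least 2, the shares in control shRNA and shE2F1 were 8.04% and 33.8% and the gain 25.7 points, with at least 5 they were 3.29%, 12.9% and 9.56 points, and over the summit base 7.09%, 39.0% and 31.9 points. From fragments over the lowest background the median log2 ratio was 0.76. Settings chosen after seeing the data were leaving out the untreated list, with a motif share of 36.8% and a ratio of 0.73, and a GSK126 summit within 100 bp, with a motif share of 37.5%. The cause of these shifts was not tested. No paired analysis was possible because each condition has 1 library. With 1 library per condition, no setting tests a difference between conditions.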
